A study of Mus musculus with 8 samples.

Results

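Adar, Eif2ak2, Samhd1, Bst2, Isg20, Ifi35 and Rtp4 are interferon-induced genes whose products edit, sense, trap or degrade viral nucleic acids and particles. All probe sets annotated to 1 of these genes alone were taken, which gave 12 of the 22626 probe sets used and 7 of the 12393 genes named. Samhd1 had 4 probe sets, Eif2ak2 and Rtp4 had 2 each and the other genes had 1, and each probe set was examined on its own.

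The arrays measured total RNA of mouse embryonic fibroblasts, connective tissue cells grown from embryos, of the strain C57BL/6 x 129Ola. Cells of 4 genotypes were used, namely Tbk1-/- Ikbke-/-, Tbk1-/- (Ikbke+/+), Ikbke-/- (Tbk1+/+) and wild type (WT, Tbk1+/+ Ikbke+/+). Each genotype was transfected for 4 h with B-DNA, the synthetic double-stranded DNA poly(dA-dT)-poly(dT-dA), or mock transfected, and 1 array was run for each of the 8 combinations. The question was how the response to transfected DNA differs when either kinase or both are missing.

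Double-stranded DNA in the cytoplasm is sensed through adaptor proteins that bring in the kinase TBK1 and its relative IKK epsilon, the product of Ikbke. These kinases phosphorylate the transcription factor IRF3, which switches on interferon beta and some antiviral genes directly. Secreted interferon then acts through its receptor on transcription factors that include STAT2 and IRF9 and bind the interferon-stimulated response element in the promoters of further genes.

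Signals are given after each array was scaled to a 2% trimmed mean of 500. A signal under 122, the 40th percentile of all scaled values, was set to that floor before logarithms were taken, so a ratio against such a signal is given as "at least". A ratio between 2 arrays was counted as higher or lower at 2-fold or more with the higher signal at 244 or more. It has no replicate and no test. The trimmed mean of the deposited signals was 139.8 to 255, and 57.3% to 63.0% of probe sets reached the floor on each array. All 12 probe sets entered the fits, where a probe set had to reach the floor on 1 array. The probe set Rtp4 1449143_at did so through the Ikbke-/- B-DNA array alone, Rtp4 1418580_at on 5 arrays, Bst2 on 6, Eif2ak2 1422006_at on 7, and the other 8 on all arrays.

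The brighter Tbk1 probe set read 390 (B-DNA) and 290.0 (mock) in Tbk1-/- Ikbke-/- cells, 305 and 226 in Tbk1-/- cells, 910.0 and 472 in Ikbke-/- cells, and 989 and 501 in WT cells. The probe set of Ikbke was under the floor throughout and checks nothing. Xist, expressed from the inactive X chromosome, read 138 to 209 on the 4 Ikbke-/- arrays, against 2950.1 to 3766 on the 4 Ikbke+/+ arrays. The Y-linked Eif2s3y read 153 to 287 on the Ikbke-/- arrays, against 1.48 to 3.63 on the Ikbke+/+ arrays. A difference by Ikbke genotype and a difference by embryo sex cannot be told apart in what follows. Of 10 fibroblast markers, 9 or 10 reached 244 on each array. The summed signal of 18 macrophage and leukocyte markers was 1453 to 1941 on the 6 mutant arrays, against 5720.1 (B-DNA) and 16333 (mock) on the WT arrays. None of the 18 read 0, but 1 or 2 reached 244 on each mutant array, against 11 and 14 on the WT arrays.

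The promoters of 6 of the genes (10 in all, since Adar and Isg20 have 3 each) are listed by RefSeq on the mouse build GRCm38.p6 from 250 bases before to 50 after the transcript start. The windows below are shown because they hold the closest matches to the elements through which interferon acts. Capitals mark the matched letters, every window is 30 bases read 5′ to 3′ on the gene's strand, and positions count the start base as 1. The first 3 match the core of the interferon-stimulated response element, which is GAAA, any 2 bases and GAAA, or a shorter form that lacks the last base, GAAANNGAA. The other 3 match the gamma-activated site TTCNNNGAA, in genes whose windows had neither form. Both strands were searched.
Bst2 interferon-stimulated response element, chr8:71537580-71537609, minus strand: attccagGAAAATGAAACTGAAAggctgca
Eif2ak2 interferon-stimulated response element, chr17:78882535-78882564, minus strand: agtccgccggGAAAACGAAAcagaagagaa
Adar shorter form, chr3:89730738-89730767, plus strand: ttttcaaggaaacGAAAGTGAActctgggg
Samhd1 gamma-activated site, chr2:157135313-157135342, minus strand: aacaccaccctTTCGGAGAAacacaagggc
Isg20 gamma-activated site, chr7:78913340-78913369, plus strand: gctggggagggTTCTTGGAAtttttccttt
Ifi35 gamma-activated site, chr11:101448408-101448437, plus strand: cagaagcagaaTTCACAGAAatgaaagtgg

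In Bst2 the capitals span 2 overlapping core matches at positions -130 to -115. The single core match of Eif2ak2 lay at 19 to 28, inside the transcribed sequence, and the Adar match at 34 to 42 of one of its 3 listed promoters. The core was found in 2 of the 10 promoters and in 3.44% of all 32851 promoters in the table. The shorter form, added after the promoters had been seen, was found in 3 of the 10 and in 8.56% of all. The gamma-activated site was found in 6 of the 10, 1 for each of the 6 genes, and in 8.3% of all promoters, and in Bst2 it overlaps the response element from -136 to -128. A match is a description of these letters and not a binding site, and the lack of one says only that these letters are not in this window.

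After B-DNA, at least 1 probe set of every one of the 7 genes was higher in Ikbke-/- cells and in WT cells. In Tbk1-/- cells no probe set reached 2-fold in either direction. In Tbk1-/- Ikbke-/- cells 1 Samhd1 probe set was higher and another Samhd1 probe set was lower. The number of the 12 probe sets counted as higher was 1 in Tbk1-/- Ikbke-/- cells (0.652% of all 16406 probe sets tested), 0 in Tbk1-/- cells (0.311%), 10 in Ikbke-/- cells (3.22%) and 11 in WT cells (3.04%). The 10 in Ikbke-/- cells include Rtp4 1449143_at, which passed the filter only through the Ikbke-/- B-DNA array. Its count there is not independent of the filter. The number counted as lower was 1 in Tbk1-/- Ikbke-/- cells (0.853% of all) and 0 in the other genotypes (0.482% in Tbk1-/-, 1.45% in Ikbke-/-, 1.82% in WT). The median log2 ratio of B-DNA over mock over the 12 probe sets was 0.03 in Tbk1-/- Ikbke-/- cells, 0.00 in Tbk1-/- cells, 3.17 in Ikbke-/- cells and 2.65 in WT cells, while the median of all probe sets tested was 0.00 in each. In RNA of a whole culture, fewer responding cells and less RNA per cell cannot be told apart.

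**Figure D1:**
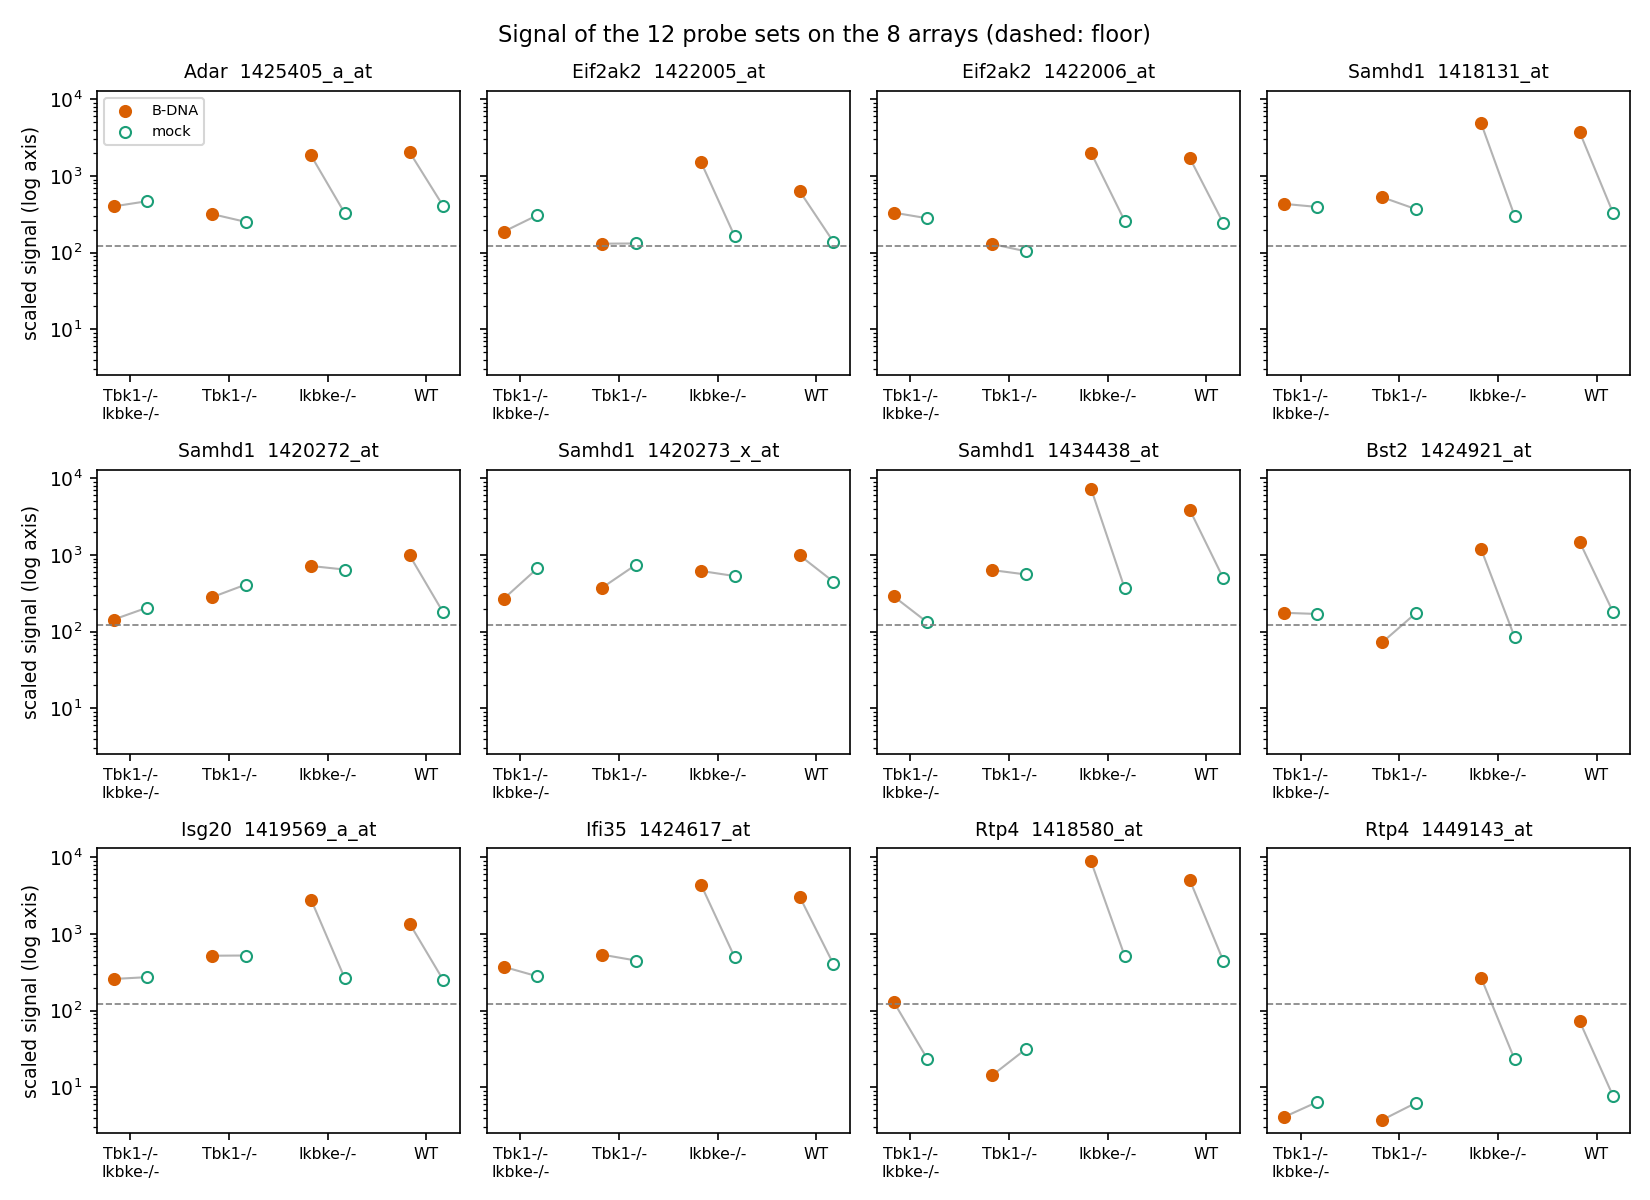
Scaled signal (log axis) of each of the 12 probe sets on the 8 arrays, by genotype, with filled circles for B-DNA and open circles for mock; a grey line joins the arrays of a genotype and the dashed line is the floor of 122. In Ikbke-/- and WT cells the filled circle stands far above the open one for most probe sets, while the circles of the 2 Tbk1-/- genotypes stay close together except for Samhd1 1420273_x_at, Samhd1 1434438_at and signals near or under the floor.

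Adar encodes the enzyme that converts adenosine to inosine in double-stranded RNA. Its probe set 1425405_a_at read 402 (B-DNA) and 469.9 (mock) in Tbk1-/- Ikbke-/- cells, 319 and 252 in Tbk1-/- cells, 1859.9 and 331 in Ikbke-/- cells, and 2047 and 407 in WT cells. Only the Ikbke-/- and WT B-DNA arrays were high, and the lower of them was 3.96-fold above the highest of the other 6. The log2 ratios of B-DNA over mock were 2.49 in Ikbke-/- cells and 2.33 in WT cells.

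Eif2ak2 encodes PKR, the kinase that halts translation by phosphorylating eIF2 alpha once it binds double-stranded RNA. The brighter probe set, 1422006_at, read 333 (B-DNA) and 281 (mock) in Tbk1-/- Ikbke-/- cells, 129.6 and 104 in Tbk1-/- cells, 2015 and 261 in Ikbke-/- cells, and 1726 and 244 in WT cells. The other, 1422005_at, read 188 and 308 in Tbk1-/- Ikbke-/- cells, 131 and 132 in Tbk1-/- cells, 1521 and 165 in Ikbke-/- cells, and 634 and 139.8 in WT cells. Both probe sets were high on the same pair of arrays, those of Ikbke-/- and WT cells after B-DNA. They differed in size, with log2 ratios of 2.95 for 1422006_at and 3.20 for 1422005_at in Ikbke-/- cells, against 2.82 and 2.18 in WT cells.

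Samhd1 encodes the enzyme that hydrolyses deoxynucleotides and so starves reverse transcription, and its 4 probe sets did not behave alike. The brightest, 1434438_at, read 289 (B-DNA) and 133 (mock) in Tbk1-/- Ikbke-/- cells, 636 and 557 in Tbk1-/- cells, 7343 and 371 in Ikbke-/- cells, and 3905 and 500.1 in WT cells. The probe set 1418131_at read 434 and 395 in Tbk1-/- Ikbke-/- cells, 528 and 369.6 in Tbk1-/- cells, 4898 and 301 in Ikbke-/- cells, and 3722 and 325 in WT cells. Both were high on the Ikbke-/- and WT B-DNA arrays, with log2 ratios of 4.31 (1434438_at) and 4.02 (1418131_at) in Ikbke-/- cells, against 2.96 and 3.52 in WT cells.

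The remaining Samhd1 probe sets gave a smaller and less regular pattern. The array annotation assigns both to Samhd1 but gives no sequence accession for either, and which transcripts they detect was not checked here. The probe set 1420272_at read 144 (B-DNA) and 206 (mock) in Tbk1-/- Ikbke-/- cells, 282 and 412 in Tbk1-/- cells, 719.8 and 647 in Ikbke-/- cells, and 988 and 178 in WT cells. The probe set 1420273_x_at read 268 and 668 in Tbk1-/- Ikbke-/- cells, 376 and 747 in Tbk1-/- cells, 620.0 and 532 in Ikbke-/- cells, and 991 and 451 in WT cells. In Ikbke-/- cells neither reached 2-fold, at log2 ratios of 0.15 for 1420272_at and 0.22 for 1420273_x_at, whereas in WT cells both were higher, at 2.47 and 1.13. Without further scaling of the arrays the WT ratio of 1420273_x_at was 0.73 and no longer counted as higher. The mock array of Tbk1-/- cells exceeded the Ikbke-/- B-DNA array on 1420273_x_at. On 10 of the 12 probe sets the Ikbke-/- and WT B-DNA arrays were both at or above the floor and above the other 6 arrays, as on 5.82% of all probe sets tested. For 1420272_at, which is among the 10, the gap was only 1.11-fold, and Rtp4 1449143_at is not counted because its WT B-DNA signal lay under the floor.

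In cells lacking both kinases, Samhd1 1434438_at was higher after B-DNA (log2 ratio 1.12) and 1420273_x_at was lower (-1.31), so the probe sets annotated to Samhd1 did not share a direction there. The call on 1434438_at rested on a mock signal of 133, close to the floor of 122, and without further scaling of the arrays its log2 ratio was 0.92. In Tbk1-/- cells 1420273_x_at lay just inside the limit at -0.99, and at -1.16 without further scaling. Across the 8 arrays the Pearson correlation of log2 signal between 1418131_at and 1434438_at was 0.92, and it was 0.43 to 0.74 for the other 5 pairs of Samhd1 probe sets.

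Bst2 encodes tetherin, the membrane protein that holds budding virions on the cell surface. It read 176 (B-DNA) and 170.2 (mock) in Tbk1-/- Ikbke-/- cells, 72.9 and 175 in Tbk1-/- cells, 1199.8 and 85.1 in Ikbke-/- cells, and 1479 and 178 in WT cells. The Ikbke-/- and WT B-DNA arrays were high, the lower of them 6.74-fold above the highest of the other 6. Bst2 was at least 9.82-fold higher after B-DNA in Ikbke-/- cells, where the mock signal lay under the floor, and its log2 ratio was 3.05 in WT cells. It is the gene whose promoter window holds both overlapping core matches shown above.

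Isg20 encodes a 3′ to 5′ exonuclease that degrades single-stranded RNA. It read 259 (B-DNA) and 274 (mock) in Tbk1-/- Ikbke-/- cells, 521 and 525 in Tbk1-/- cells, 2820.4 and 269 in Ikbke-/- cells, and 1368 and 251 in WT cells. The log2 ratio was 3.39 in Ikbke-/- cells and 2.44 in WT cells, and both B-DNA arrays were above the other 6. The Tbk1-/- arrays came next in order at both treatments.

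Ifi35 encodes a leucine zipper protein that binds Nmi, another interferon-induced protein. Ifi35 read 374 (B-DNA) and 281 (mock) in Tbk1-/- Ikbke-/- cells, 538 and 451 in Tbk1-/- cells, 4404 and 501 in Ikbke-/- cells, and 3067 and 411 in WT cells. The log2 ratio was 3.14 in Ikbke-/- cells and 2.90 in WT cells. These were again the only arrays standing apart, the lower of them 5.70-fold above the highest of the rest.

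Rtp4 encodes an interferon-induced protein that was first known as a chaperone of membrane receptors. The probe set 1418580_at read 130.3 (B-DNA) and 23.6 (mock) in Tbk1-/- Ikbke-/- cells, 14.4 and 31.6 in Tbk1-/- cells, 8860.2 and 522 in Ikbke-/- cells, and 5097 and 449.7 in WT cells. Here the mock arrays differed too, with both Tbk1+/+ mock arrays well above the floor and both Tbk1-/- mock arrays under it. The log2 ratio was 4.09 in Ikbke-/- cells and 3.50 in WT cells. In Tbk1-/- Ikbke-/- cells it was 0.09 with the floor used and 1.77 with a floor at the 20th percentile. The dim probe set 1449143_at reached the floor on 1 array, at 269.9 after B-DNA in Ikbke-/- cells, where it was at least 2.21-fold higher than on the mock array, and it read 72.3 after B-DNA in WT cells.

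**Figure D2:**
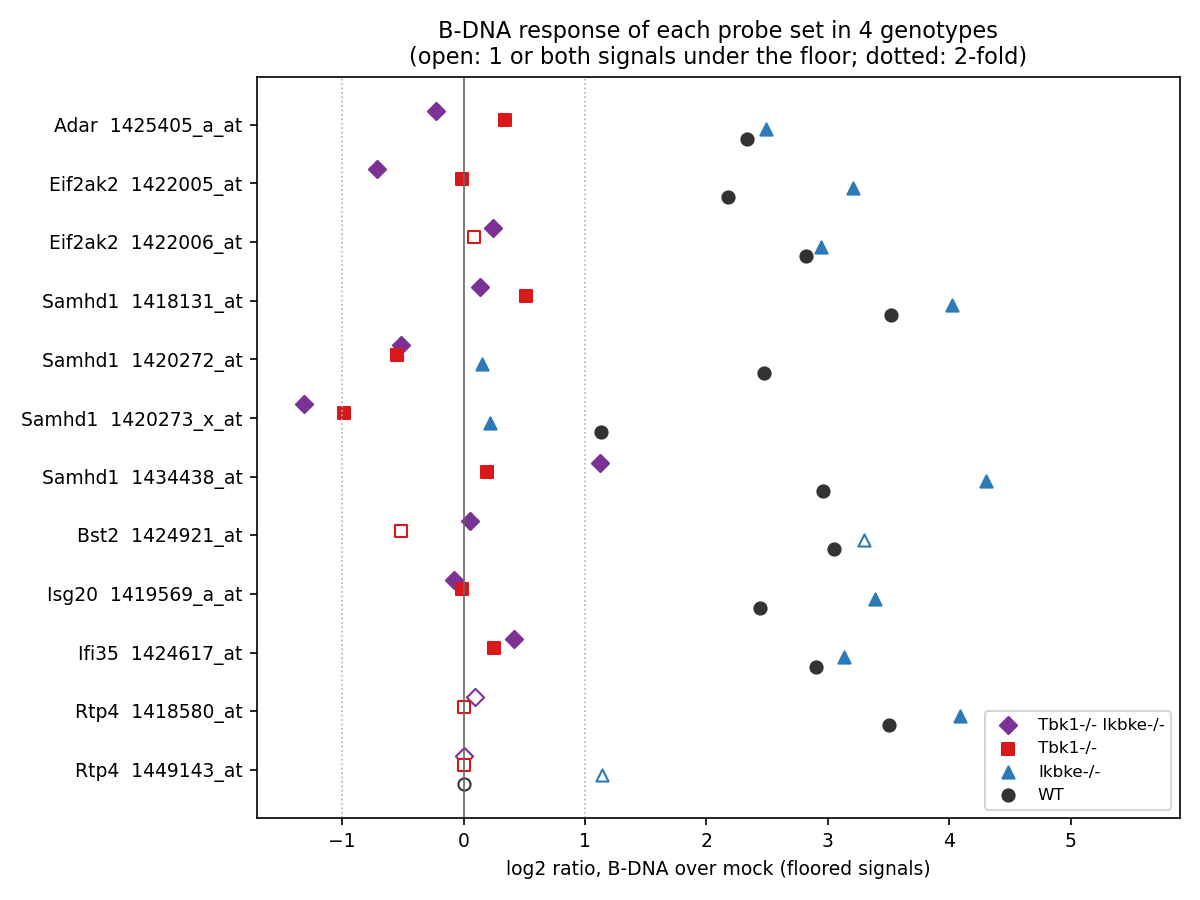
Log2 ratio of B-DNA over mock (horizontal axis, floored signals) for each probe set, with 1 symbol per genotype; open symbols have 1 or both signals under the floor and dotted lines mark 2-fold. The Ikbke-/- and WT symbols lie beyond 2 for most probe sets, and those of Tbk1-/- cells lie between -0.99 and 0.51; the Samhd1 probe sets 1420272_at and 1420273_x_at are near 0 in Ikbke-/- cells.

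The dependence of the response on each kinase gene was tested with limma on all 8 arrays, as the difference between the log2 ratios of the genotypes with and without the gene. The fit keeps genotype as a block and has 1 residual degree of freedom, moderated across 16406 probe sets. For Tbk1, 10 of the 12 probe sets were called, all with a lower log2 ratio in the Tbk1-/- pairs, where 1.51% of all probe sets were called in that direction and 0.134% in the other. The median difference of the 12 was -2.84, against 0.04 over all probe sets tested. All 7 genes had a called probe set.

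For the genes of proteins that act on double-stranded RNA, the Tbk1 differences were -2.35 for Adar (SE 0.27, limma adjusted p = 0.0106), -2.72 for Eif2ak2 1422006_at (SE 0.23, adjusted p = 0.00299) and -3.05 for 1422005_at (SE 0.41, adjusted p = 0.0197). Of the Samhd1 probe sets, 1434438_at (-2.98, SE 0.25), 1418131_at (-3.45, SE 0.29) and 1420273_x_at (-1.83, SE 0.26) were called, with limma adjusted p of 0.00268, 0.00283 and 0.0244. For 1420273_x_at the ratio was negative in the Tbk1-/- pairs and positive in the Tbk1+/+ pairs, and its call was lost without further scaling (-1.51, limma adjusted p = 0.0842) and with a common median (-1.79, adjusted p = 0.0522). With a common median Eif2ak2 1422005_at also missed the threshold (-3.01, limma adjusted p = 0.0515). The fourth, 1420272_at, had a difference of -1.84 with an SE of 0.52 and was not called (adjusted p = 0.173). This was the highest SE of the 12, and its Ikbke-/- ratio of 0.15 lay nearer to those of the Tbk1-/- genotypes than to the WT ratio.

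Bst2 differed by -3.41 (SE 0.24, limma adjusted p = 0.00145), Isg20 by -2.96 (SE 0.31, adjusted p = 0.00631) and Ifi35 by -2.69 (SE 0.23, adjusted p = 0.00313). Rtp4 1418580_at differed by -3.75 (SE 0.25, limma adjusted p = 0.00119), with 3 of its 4 Tbk1-/- arrays set to the floor. With a floor at the 20th percentile its difference was -2.91 (limma adjusted p = 0.132) and with an offset of 16 in place of the floor -3.13 (adjusted p = 0.139), neither of them called. Bst2, with 1 Tbk1-/- and 1 Ikbke-/- array under the floor, differed by -4.04 with the lower floor (limma adjusted p = 0.0348). Rtp4 1449143_at was at the floor on 7 arrays and was not called (-0.57, SE 0.32, adjusted p = 0.452). No difference called here turned its sign under any alternative, but with any 1 genotype pair left out none of the 12 was called. A floor at the 20th percentile left 1 called, an offset in place of the floor 4, no filter 0, and a fit with treatment by Tbk1 alone 6. Without the WT pair, whose arrays carried the leukocyte markers, the 10 differences were -4.04 to -1.37 (limma adjusted p = 0.404 for each).

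**Figure D3:**
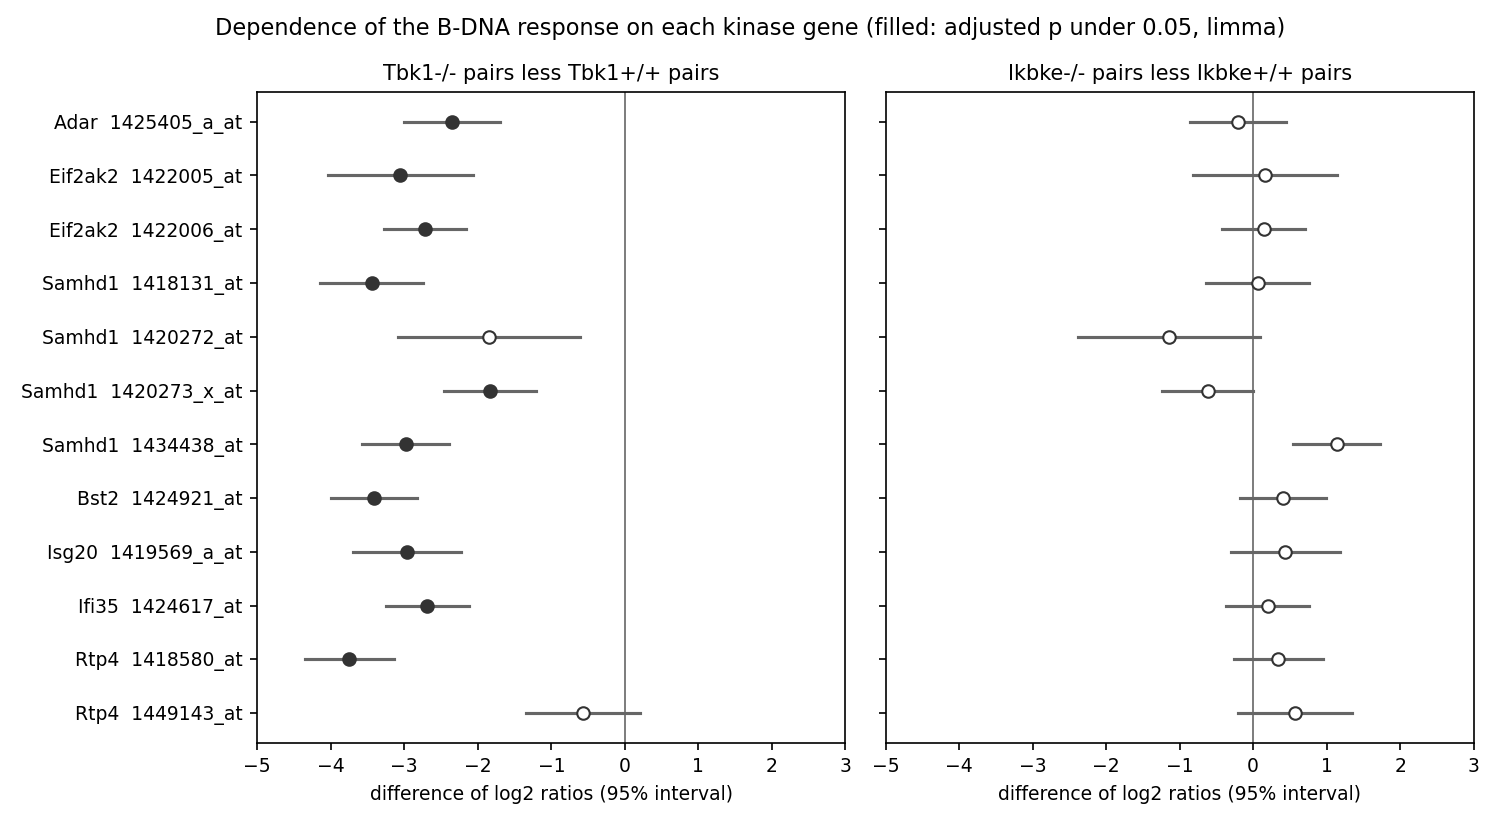
Difference of log2 ratios for each probe set with its 95% interval from limma, Tbk1-/- pairs less Tbk1+/+ pairs on the left and Ikbke-/- pairs less Ikbke+/+ pairs on the right; filled points have an adjusted p under 0.05. On the left 10 points are filled, from -3.75 to -1.83; on the right none is filled and the points lie between -1.14 and 1.14.

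For Ikbke, 0 of the 12 probe sets were called by limma and 0 of all 16406 (0%), with 1 of the 12 and 792 of all at an unadjusted p under 0.05. That 1 was Samhd1 1434438_at, whose response was larger in the Ikbke-/- pairs (1.14, 95% interval 0.55 to 1.73, adjusted p = 0.973). The intervals of the brightest probe sets of the other 6 genes included 0, for example -0.86 to 0.45 for Adar and -0.17 to 0.99 for Bst2. Such an interval gives the differences that these 8 arrays are compatible with, so a difference inside it is not excluded.

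Contrasts of the same fit, added after the data had been seen, gave the response within each Tbk1 genotype. In the Tbk1+/+ pairs 9 of the 12 probe sets rose, against 3.03% of all (none of the 12 without the filter on low probe sets). The exceptions were Samhd1 1420272_at (1.31, limma adjusted p = 0.112), Samhd1 1420273_x_at (0.68, adjusted p = 0.107) and Rtp4 1449143_at (0.57, adjusted p = 0.233). In the Tbk1-/- pairs 0 of the 12 were called by limma and 0 of all (0%), with 2 of the 12 and 1163 of all at an unadjusted p under 0.05. These 2 were again Samhd1 probe sets with opposite signs, 1420273_x_at at -1.15 (adjusted p = 0.651) and 1434438_at at 0.66 (adjusted p = 0.654). The average response over the 4 genotypes, with 3 residual degrees of freedom, called 0 of the 12 and 0 of all probe sets (0%), with 3 of the 12 and 1305 of all at an unadjusted p under 0.05.

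Without B-DNA, the mock array of each mutant was compared with the WT mock array. Rtp4 1449143_at was under the floor on every mock array and could not be counted as different. The 3 comparisons share that array, which also carried the highest leukocyte marker sum. In Tbk1-/- Ikbke-/- cells Eif2ak2 1422005_at was higher (log2 ratio 1.14, 5.45% of all probe sets being higher, but 0.38 and not counted without further scaling), while Samhd1 1434438_at (-1.91) and Rtp4 1418580_at (at least 3.68-fold) were lower (5.49% of all). Without further scaling Ifi35 was lower there too (-1.31). In Tbk1-/- cells Samhd1 1420272_at (1.21) and Isg20 (1.06) were higher (2.27% of all), and Rtp4 1418580_at was at least 3.68-fold lower (3.34% of all). In Ikbke-/- cells Samhd1 1420272_at was higher (1.86, 2.24% of all) and none was lower (2.94% of all). Whether the leukocyte marker signal on the WT mock array bears on these ratios was not tested.

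After B-DNA, the Ikbke-/- array was 2-fold or more above the WT array on 3 of the 12 probe sets, against 2.92% of all. These were Eif2ak2 1422005_at (log2 ratio 1.26), Isg20 (1.04) and Rtp4 1449143_at (at least 2.21-fold higher). The Rtp4 probe set passed the filter only through this Ikbke-/- array, and its WT signal of 72.3 was set to the floor, so its count is not independent of the filter. Isg20 missed 2-fold after quantile normalization (0.96), and Samhd1 1434438_at passed it without further scaling and with a common median (1.09 in each). None was lower (3.3% of all), and this comparison was also added after the data had been seen. On the Ikbke-/- B-DNA array 1 of the 18 leukocyte markers reached 244, against 11 on the WT B-DNA array, and the macrophage gene C1qa read 13.6 on the Ikbke-/- array, against 303 on the WT array.

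Between genes, the log2 signals of the brightest probe sets had Pearson correlations of 0.76 to 0.98 over the 8 arrays (median 0.91 over 21 pairs of genes). All these values come from the same 8 arrays, 2 of which were high for every gene. The genes with the pattern most like each member were found among 7594 genes in the same way. For Adar these were Parp12 (r = 0.992), Igtp (0.989) and Jak2 (0.989), and for Eif2ak2 Rbm43 (0.991), Ifitm3 (0.988) and Ecpas (0.988). Samhd1 was most like Eif4e3 (0.982), Cacybp (0.982) and S1pr1 (0.980). A correlation does not measure the size of a change. Cacybp, for example, read 2040 (B-DNA) and 1431 (mock) in Ikbke-/- cells, and 1834 and 1435 in WT cells, a much smaller change than that of Samhd1.

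Bst2 was most like Iigp1 (0.994), Irf7 (0.992) and Gbp2b (0.992), of which Iigp1 and Gbp2b encode interferon-induced GTPases and Irf7 a transcription factor of interferon genes. Isg20 was most like Tapbp (0.984), a chaperone of antigen presentation, Slc25a28 (0.981) and Ubr4 (0.977). For Ifi35 the closest were Tor1aip2 (0.992), Trim26 (0.990) and Tdrd7 (0.989), and for Rtp4 Dok1 (0.994), Sppl2a (0.994) and Apod (0.991). Apod, like Rtp4, lay low in the Tbk1-/- genotypes, at 38.9 (B-DNA) and 136 (mock) in Tbk1-/- Ikbke-/- cells, 18.2 and 104 in Tbk1-/- cells, 1848 and 208 in Ikbke-/- cells, and 1350.1 and 263 in WT cells.

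Of 17 relatives of the 7 genes by sequence or binding, 12 had a probe set, 8 passed the filter and 1 was higher in Ikbke-/- cells (3.22% of all probe sets) and in WT cells (3.04%). The 8 included the editing enzyme gene Adarb1 and the eIF2 alpha kinase genes Eif2ak1, Eif2ak3 and Eif2ak4. The 1 higher gene was Nmi, the binding partner of Ifi35, at 182 (B-DNA) and 184 (mock) in Tbk1-/- Ikbke-/- cells, 103 and 139 in Tbk1-/- cells, 1690.4 and 187 in Ikbke-/- cells, and 959.7 and 92.5 in WT cells. Its Tbk1 difference was -3.17 (SE 0.23, limma adjusted p = 0.00169). The median log2 ratio of the 8 genes was -0.01 in Tbk1-/- Ikbke-/- cells, -0.18 in Tbk1-/- cells, -0.21 in Ikbke-/- cells and -0.19 in WT cells.

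Genes that work beside Eif2ak2 and Samhd1 were counted in the same way. Of 11 measured genes for PKR regulators and the eIF2 alpha axis, none was called by limma for Tbk1 (1.51% of all probe sets lower, 0.134% higher). None was higher in Ikbke-/- cells (3.22% of all) or WT cells (3.04%). With so few genes, counts of 0 are near these shares and say nothing particular about the list. Prkra, an activator of PKR, and Eif2b4, a subunit of the eIF2B exchange factor, were lower in Ikbke-/- cells, Prkra at a log2 ratio of -1.05 and Eif2b4 with 304 (B-DNA) and 609 (mock). Eif2b4 was also the 1 gene of this list that fell in the Tbk1+/+ pairs (-0.84, limma adjusted p = 0.045, against 1.15% of all probe sets). Of 10 measured genes for deoxynucleotide supply and removal, none was called by limma, which with so few genes is again near the shares of all probe sets. Nt5c, a nucleotidase gene, was higher in WT cells (1.21, with 3.04% of all probe sets higher) with a ratio of -0.22 in Ikbke-/- cells.

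Other antiviral effectors had ratios from near 0 to above those of the 7 genes. Of 30 listed, 23 were measured, and 18 were higher in Ikbke-/- cells (3.22% of all probe sets) and 18 in WT cells (3.04%), with median log2 ratios of 3.18 and 2.72. None was higher in Tbk1-/- Ikbke-/- cells (0.652% of all) or Tbk1-/- cells (0.311%), where the median was 0.00 in each. Those higher in both were the editing enzyme genes Apobec1 and Apobec3, the ubiquitin ligase genes Trim21, Trim25 and Trim30a, and Ifitm3, Mov10, Oas1a, Oas1b, Oas2, Mx1, Mx2, Rsad2, Ifit1, Ifit2, Ifit3 and Pml. Sp100 was higher in Ikbke-/- cells alone by this count (log2 ratio 1.20, against 0.63 in WT cells). Sting1 was higher in WT cells alone (1.51, against 0.84 in Ikbke-/- cells). Neither was called for Ikbke by limma (Sp100 0.29, adjusted p = 0.999, and Sting1 -0.84, adjusted p = 0.973). For Tbk1, 17 of the 23 were called by limma with a lower log2 ratio in the Tbk1-/- pairs (1.51% of all probe sets), all of those named except Ifitm3 (-1.12, adjusted p = 0.0945) and Sp100 (-0.91, adjusted p = 0.177), and 19 rose in the Tbk1+/+ pairs (3.03% of all). Ifitm1, Ifitm2 and Serinc3 had log2 ratios of -0.56 to 0.26 in Ikbke-/- and WT cells, against 5.68 to 7.55 for Rsad2.

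The differences ran from -6.79 for Rsad2 to -1.51 for Sting1, and the 10 called differences of the 7 genes lay inside that range. Of 10 measured genes of the interferon receptor and its Stat signalling, Stat2, Irf9, Irf7 and Irf1 were higher in both Ikbke-/- and WT cells. Of all probe sets tested, 3.22% were higher in Ikbke-/- cells and 3.04% in WT cells. Stat2 (-2.85, SE 0.26, limma adjusted p = 0.00432), Irf9 (-1.93, SE 0.27, adjusted p = 0.0238) and Irf7 (-4.80, SE 0.28, adjusted p = 0.00066) were called for Tbk1, as were 1.51% of all probe sets in that direction. Irf1 was not (-1.05, SE 0.46, adjusted p = 0.342). Ifnb1, which encodes interferon beta, read 92.0 (B-DNA) and 83.3 (mock) in Tbk1-/- Ikbke-/- cells, 75.1 and 106 in Tbk1-/- cells, 194 and 55.8 in Ikbke-/- cells, and 221 and 99.5 in WT cells, and never reached 244.

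**Figure D4:**
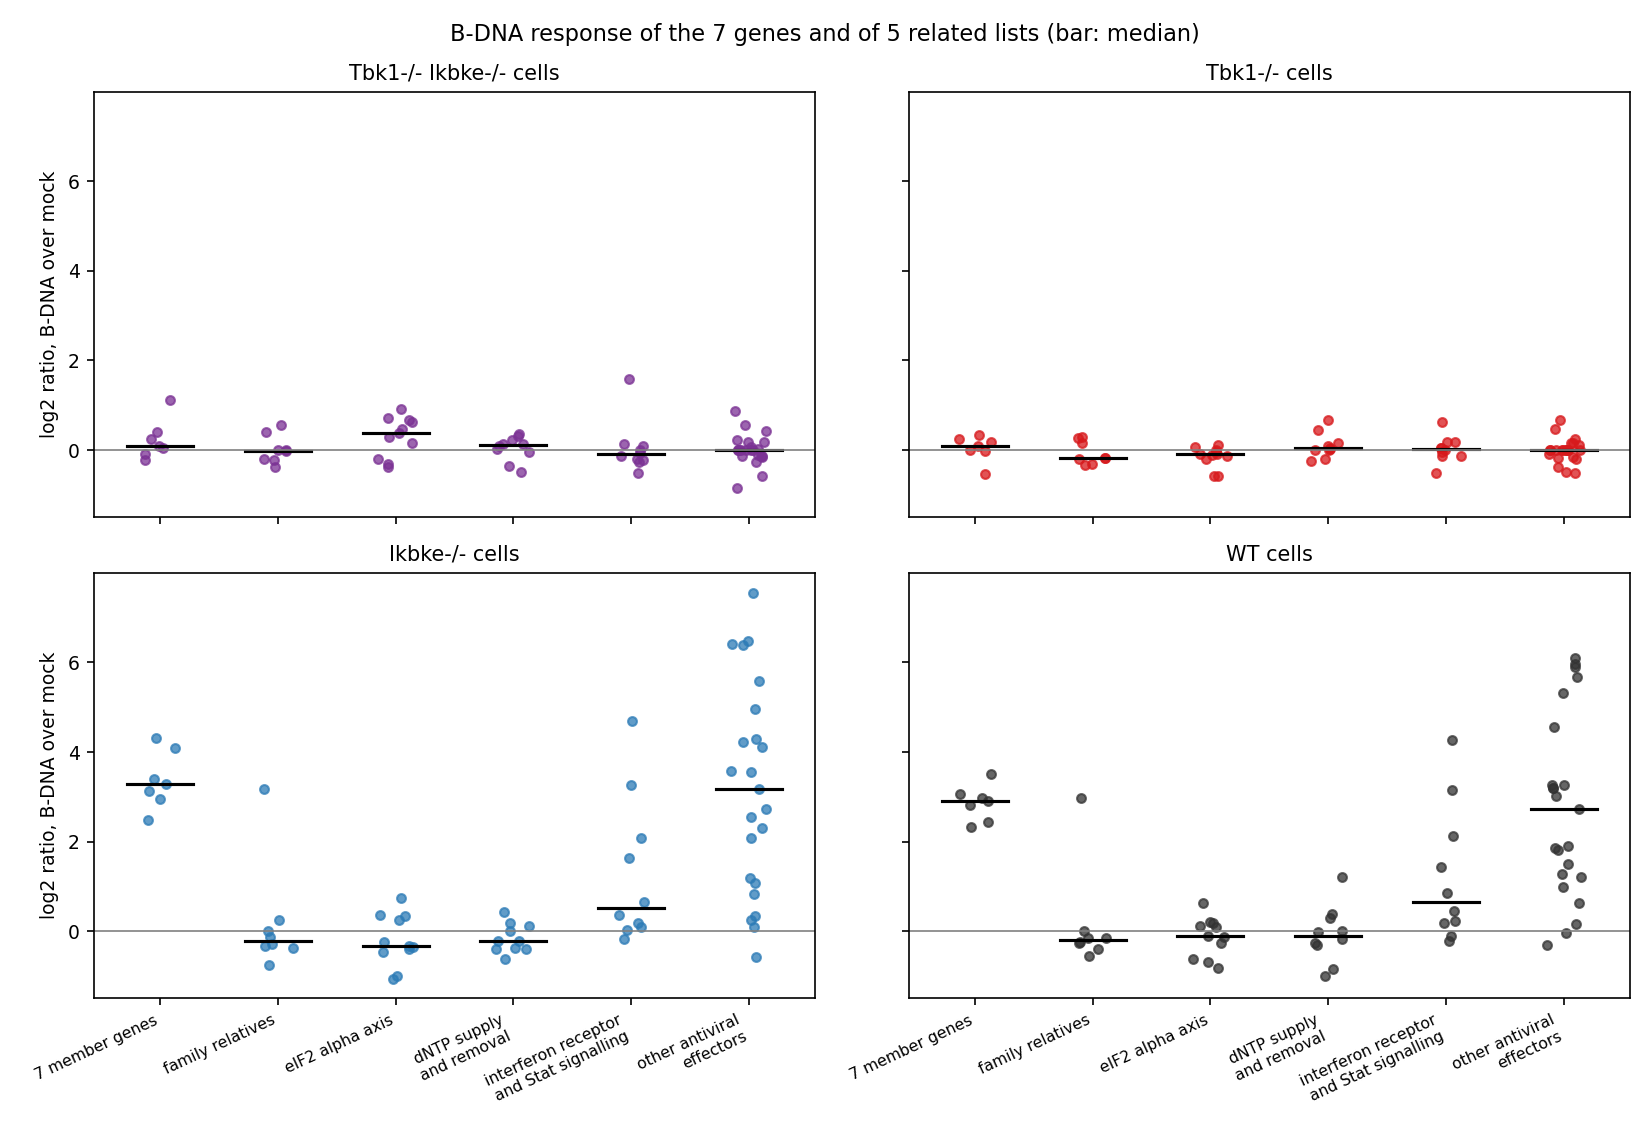
Log2 ratio of B-DNA over mock (vertical axis) of each measured gene, in 1 panel per genotype, for the 7 genes by their brightest probe sets and for 5 lists of related genes; each dot is a gene and the bar is the median. In Ikbke-/- and WT cells the 7 genes lie between 2.33 and 4.31, inside the range of the other antiviral effectors, while the lists of relatives, eIF2 alpha genes and deoxynucleotide genes lie between -1.05 and 1.21 apart from Nmi.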

How the data were processed

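The authors deposited 1 signal intensity per probe set and array, on a linear scale, computed with MAS5 per the submitters' processing notes and Microarray Suite 5.0 per the series design text. The scaling target, detection calls and pooling are not given here. GeneSpring is also named, with no role, and the array type named there is not that of the annotation used. Control probe sets (64 of 22690) were left out. Of the 22626 others, 20380 had 1 gene symbol, 691 several and 1555 none, and no gene was named from several.

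Each array was multiplied by a factor of 1.96 to 3.58 to a 2% trimmed mean of 500, floored at the 40th percentile (122) and taken to log2. Probe sets above the floor on 1 or more arrays (16406) were fitted with limma 3.58.1 (lmFit, eBayes) in R 4.3.3, 2-sided, with Benjamini-Hochberg adjustment over all of them and a threshold of 0.05. For the average response the model held a genotype block and treatment, and the dependence fit added treatment by Tbk1 and treatment by Ikbke (1 residual degree of freedom, prior 5.53). The fits were also run on simulated data with independent noise and planted Tbk1 effects, only to check that large planted effects were recovered. The simulation lacked the other differences between the real arrays, so it does not test the p-values given here. Tables used Python 3.11.15 and pandas 2.3.3. Each group has 1 array, and the sources do not say whether cultures were separate. The p-values therefore rest on these 8 arrays alone, whose number limits precision, and measure no spread between replicates. In the dependence fit the error is the interaction of treatment with both kinase genes together, moderated by the spread over all probe sets. The alternatives were other scalings, a lower floor, an offset of 16 in place of a floor, no filter, 1 probe set per gene, a trended prior, treatment by Tbk1 alone, and each genotype pair left out. With a pair left out, the dependence fit also held treatment by Tbk1 alone, and its prior degrees of freedom were 0.81 or 0.85. The removed pair and the changed model cannot be told apart in those fits.

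The members, lists and tests were chosen with earlier results of these data known. Named were all probe sets of the 7 genes, list members called or 2-fold different in Ikbke-/- or WT cells, the 3 genes most correlated with each member, and Tbk1, Ikbke and Xist. C1qa, Eif2s3y, Ifnb1 and relatives given as examples were chosen after their values were seen. Genes had 1 probe set in lists, that with the highest mean. The promoter table holds no entry for Rtp4.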

Additional observations from a re-analysis of the deposited data

Results flagged for a closer look

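The response to B-DNA differed between the Tbk1 genotypes on 10 probe sets, by a test of the difference itself (the interaction of treatment with Tbk1 in limma, adjusted p under 0.05). On the log2 scale, the ratio in the Tbk1-/- pairs less that in the Tbk1+/+ pairs was -2.35 for Adar, -3.05 for Eif2ak2 1422005_at and -2.72 for Eif2ak2 1422006_at. It was -3.45 for Samhd1 1418131_at, -1.83 for Samhd1 1420273_x_at and -2.98 for Samhd1 1434438_at. It was -3.41 for Bst2, -2.96 for Isg20, -2.69 for Ifi35 and -3.75 for Rtp4 1418580_at. For Samhd1 1420273_x_at the Tbk1-/- pairs had negative ratios (-0.99 in Tbk1-/- cells and -1.31 in Tbk1-/- Ikbke-/- cells), whereas the other 9 had log2 ratios of -0.71 to 1.12 in these genotypes.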

How the results depend on the processing

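In the fits the B-DNA and mock arrays of a genotype were paired through the genotype block. No paired analysis by replicate number was possible because the labels give no replicate numbers and each group has 1 array. The count of probe sets whose response depended on Tbk1 was 10 of 12 and changed to 1 with a floor at the 20th percentile, 4 with log2(value + 16) and no floor, 0 without a filter on low probe sets, 6 with treatment by Tbk1 alone, and 0 to 0 with any genotype pair left out. With a pair left out, all 10 differences stayed below 0, at -4.04 to -1.37. The 10 had been called on arrays that these fits reuse, so the kept sign is not independent support. Over all probe sets the Tbk1 count of 270 became 60, 96, 0 and 124 under those first 4 settings, 446 with a trended prior and 0 with a pair left out. The count in the Tbk1+/+ pairs, 9 of 12, was 0 without a filter, and that over all probe sets, 686, was 2118 without further scaling, 201 with the lower floor, 275 with the offset, 0 without a filter and 1031 with a trended prior. Without a filter, 22626 probe sets were fitted and the prior degrees of freedom were 0.38. Without further scaling, the median log2 ratio of all probe sets moved to -0.38 in WT, -0.23 in Ikbke-/- and -0.11 in Tbk1-/- cells, and to -0.55 between the Tbk1-/- Ikbke-/- and WT mock arrays. Counts of single ratios moved by at most 1. Higher in WT cells was 10 in place of 11 without further scaling. Lower in Tbk1-/- cells was 1 in place of 0 without further scaling, scaled to the median and with the lower floor. Higher in Tbk1-/- Ikbke-/- cells was 0 without further scaling and 2 with the lower floor, in place of 1. Lower on the Ikbke-/- mock array was 1 in place of 0 with the lower floor. Lower on the Tbk1-/- mock array was 2 in place of 1 without further scaling, with the lower floor and with the offset. Higher on the Tbk1-/- Ikbke-/- mock array was 0 in place of 1 and lower was 3 in place of 2 (Ifi35 added) without further scaling. Higher on the Ikbke-/- than the WT B-DNA array was 4 in place of 3 without further scaling and with a common median, and 2 with quantile normalization. Signs turned in uncalled values only, where the average response of Samhd1 1420272_at was -0.30 to 0.70 with a pair left out (-0.30 without the WT pair), that of Samhd1 1420273_x_at -0.69 to 0.12 (0.01 without the Tbk1-/- pair, 0.12 without the Tbk1-/- Ikbke-/- pair), and the Ikbke difference of Adar 0.065 without further scaling. The cause of these changes was not tested. Signal near the floor limits Rtp4 1449143_at, Rtp4 1418580_at, Bst2 and Eif2ak2 1422006_at.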

Other observations

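Irf1, which encodes a transcription factor of interferon and NF-kB responses, was 2-fold or more higher after B-DNA in cells lacking both kinases. Samhd1 1434438_at was also counted as higher there (1.12), but from a mock signal of 133 near the floor, and at 0.92 without further scaling. Samhd1 1418131_at had a ratio of 0.13 there. Irf1 read 4743 (B-DNA) and 1569 (mock) in Tbk1-/- Ikbke-/- cells, 1044 and 1005 in Tbk1-/- cells, 4379 and 1406 in Ikbke-/- cells, and 5653 and 1299.6 in WT cells. The log2 ratio of 1.60 in Tbk1-/- Ikbke-/- cells was the only one of 10 measured genes of the interferon receptor and Stat signalling to reach 2-fold there. Of all probe sets tested, 0.652% were higher in those cells. Whether the Irf1 ratio differed from that of 0.05 in Tbk1-/- cells was not tested.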
